A study of Homo sapiens with 9 samples.

Results

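PAPPA, a secreted metalloprotease whose substrates are binding proteins of the insulin-like growth factors (IGFs), is described here with its stanniocalcin inhibitors (STC1 and STC2), the binding proteins IGFBP3, IGFBP4, IGFBP5, IGFBP6 and IGFBP7, and the receptors IGF1R and IGF2R. These 10 genes of the IGF axis were taken by symbol from a table of 23710 entries. All 10 are listed there, 9 had counts, and the same 9 were among the 12546 genes that passed a filter on low counts. They were selected on the counts and fold changes of these same 9 libraries, known from earlier results. The changes of the 10 genes are therefore given as sizes with their errors and without a p-value.

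RNA was sequenced from MDA-MB-231, a widely used human breast cancer line of the triple-negative, mesenchymal-like kind. The cells were transduced with lentivirus from a pGIPZ vector that carried hairpin shUGDH-1 (3 libraries), hairpin shUGDH-2 (3 libraries) or the non-targeting hairpin shNT (3 libraries), so all 3 groups had a virus and a hairpin, and untransduced cells were not analysed here. UGDH makes UDP-glucuronate, the sugar donor for hyaluronan and sulfated glycosaminoglycans. All cells grew in the same serum-containing medium, per the labels. The labels call the cultures biological replicates but do not say whether each was transduced separately or whether the lines were clones, so errors describe the spread between these libraries.

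In the IGF system, the ligands IGF1 and IGF2 signal through the tyrosine kinase receptor IGF1R, whereas IGF2R mainly removes IGF2 and carries lysosomal enzymes. In the extracellular space the ligands are held by binding proteins. PAPPA cuts IGFBP4, and also IGFBP5, and so frees the ligand beside the cell. STC1 and STC2 bind PAPPA and block this cleavage, which makes the pair the known inhibitors of the protease in many tissues.

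The hairpins define the groups, and their sequences follow because each was searched for seed matches in transcripts of the axis. Capitals mark bases 2 to 8, the seed, counted from the 5′ end of the sequence given in the labels. The exact end of the processed guide is not given in the sources used here.
shUGDH-1: tTGCATCAaatatgcgacg
shUGDH-2: aTATACTTcagatctgctg
shNT: aTCTCGCTtgggcgagagtaag
Both UGDH sequences are antisense to exon 4 of UGDH mRNA, at chr4:39510687-39510705 for shUGDH-1 and chr4:39510800-39510818 for shUGDH-2 (GRCh38), and shNT matched no UGDH transcript. Only 1 coding transcript per gene was searched. In it, a 3′ UTR of at least 50 bases was found for 8 of the 9 tested members (not for IGFBP3) and for 11013 tested genes. The match to the shUGDH-1 seed, TGATGCA, was found in 9.81% of these genes, and among the members in PAPPA (1 match) and IGF1R (2 matches). The match to the shUGDH-2 seed, AAGTATA, was found in 13.5% of genes, and among the members in STC2 and IGF2R with 1 match each. The match to the shNT seed, AGCGAGA, was in 5.06% of genes and in none of the 8 members. The match in PAPPA starts 2904 bases after the stop codon and is shown because PAPPA is the member that differed most with that hairpin.
PAPPA site: gaggcagctcTGATGCActattgtgtg
A match says only that these letters are there. Whether a seed match had any part in a member's level was not tested.

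The libraries held 9249738 to 13328002 counts, and replicate 3 of shUGDH-1 was the shallowest. UGDH averaged 7.65 ± 0.37 CPM with shUGDH-1, 7.17 ± 0.80 CPM with shUGDH-2 and 53.0 ± 2.67 CPM with shNT (SD, n = 3 each; CPM is the count scaled to a common library size with TMM factors), at log2 fold changes of -2.80 and -2.89 against shNT. Among control libraries, replicate 1 of shNT stood apart most, since its pairs with replicates 2 and 3 differed by 1.9 and 1.86 times the variance of counting alone, against 1.19 to 1.47 for all other pairs within a group. The 5 mesenchymal-like markers VIM, CD44, AXL, CAV1 and MSN were all present. PGR had no count, ESR1 and CDH1 were under 1 CPM, and GATA3 averaged 40.4, 45.8 and 37.5 CPM and EPCAM 10.8, 8.97 and 8.35 CPM with shUGDH-1, shUGDH-2 and shNT. Summed luminal markers came to 50.6 to 53.5 CPM with shUGDH-1, 52.9 to 58.0 CPM with shUGDH-2 and 43.4 to 49.1 CPM with shNT. Among the leukocyte, fibroblast and endothelial markers reported here, CD3E, LUM and DCN were at 0 in every library, PTPRC, PDGFRA, PECAM1 and CDH5 stayed under a mean of 1 CPM in each group, and CD14 and PDGFRB were above it. CD14 averaged 2.34 CPM with shUGDH-1, 1.82 CPM with shUGDH-2 and 1.54 CPM with shNT. Summed leukocyte markers, nearly all CD14, came to 2.06 to 2.70 CPM with shUGDH-1, 1.77 to 2.00 CPM with shUGDH-2 and 1.53 to 1.62 CPM with shNT. These sums had the same order of groups as PAPPA and did not overlap. PTPRC, at 0.0513, 0.0281 and 0.0512 CPM with shUGDH-1, shUGDH-2 and shNT, did not follow this order. Of all genes tested, 34.1% did not overlap for shUGDH-1 against shNT, 28.5% for shUGDH-2 against shNT and 27% between the hairpins. Summed fibroblast markers, nearly all PDGFRB, came to 19.6 to 21.7 CPM with shUGDH-1, 21.0 to 22.9 CPM with shUGDH-2 and 18.5 to 21.0 CPM with shNT. The part of these markers in the other results was not tested.

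PAPPA differed between all 3 groups, in the order shUGDH-1, shUGDH-2, shNT. The raw counts were 275, 308 and 219 with shUGDH-1, then 87, 91 and 86 with shUGDH-2, and 44, 36 and 43 with shNT. Scaled, these gave 21.2, 23.2 and 23.8 CPM with shUGDH-1, 7.33, 7.01 and 6.95 CPM with shUGDH-2, and 3.38, 3.06 and 3.66 CPM with shNT. No library of one group reached the range of another. PAPPA was 6.7-fold higher with shUGDH-1 than with shNT (log2 fold change 2.74, SE 0.12, 95% interval 2.50 to 2.99). With shUGDH-2 it was 2.1-fold higher than with shNT (1.07, SE 0.15, 95% interval 0.76 to 1.38). Set directly against each other, shUGDH-1 was 3.19-fold above shUGDH-2 (1.67, SE 0.10, 95% interval 1.46 to 1.88). In the same contrast, remaining UGDH RNA differed by a log2 value of 0.09 (SE 0.13). Whether remaining UGDH had a part in the PAPPA difference between the hairpins was not tested. By log2 fold change PAPPA ranked 2 among 12546 genes with shUGDH-1 and 33 with shUGDH-2. The authors' deposited table gives log2 fold changes for PAPPA of 2.51 (SE 0.14) for shUGDH-1 and 0.94 (SE 0.16) for shUGDH-2. In bulk RNA, more cells with the transcript and more transcript per cell cannot be told apart.

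The PAPPA gene lies on the plus strand of chromosome 9, at chr9:116153804-116402322 in GRCh38, with 11573 bases of exon when all annotated transcripts are merged. The noncoding gene PAPPA-AS1 runs on the other strand and overlaps 2450 of these bases. The use of strand in counting is not given in the sources used here, so reads of PAPPA and of PAPPA-AS1, which the count table does not list under that symbol, cannot be told apart. The nearest tested gene after PAPPA, ASTN2, is 22.9 kb away on the same chromosome and encodes a membrane protein of neurons. ASTN2 averaged 3.62 CPM with shUGDH-1, 2.88 CPM with shUGDH-2 and 3.35 CPM with shNT, and passed with neither hairpin (adjusted p = 0.789 and 0.557, edgeR quasi-likelihood test with Benjamini-Hochberg adjustment). The nearest tested gene before it, 1040 kb away, is TNC, which encodes the matrix protein tenascin-C. TNC fell with both hairpins, by 0.51 on the log2 scale with shUGDH-1 (SE 0.07, adjusted p = 1.5e-07) and by 0.23 with shUGDH-2 (SE 0.07, adjusted p = 0.0146, same edgeR test).

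The promoter of PAPPA is shown with that of IGFBP4, the binding protein it is best known to cut, since both transcripts were higher with both hairpins. Each sequence runs from 250 bases before to 50 bases after the RefSeq start (GRCh38.p14). Capitals mark matches, on either strand, to 6 motifs searched (FOXO, AP-1, TFAP2, SRE, E-box and TATA box), none of which overlap here.
PAPPA promoter, chr9:116153541-116153840, plus strand: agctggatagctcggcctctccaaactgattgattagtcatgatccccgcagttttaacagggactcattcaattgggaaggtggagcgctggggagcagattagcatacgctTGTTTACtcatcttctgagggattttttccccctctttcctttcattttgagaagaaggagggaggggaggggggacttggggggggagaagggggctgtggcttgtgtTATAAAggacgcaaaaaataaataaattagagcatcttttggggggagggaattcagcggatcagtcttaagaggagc
IGFBP4 promoter, chr17:40443200-40443499, plus strand: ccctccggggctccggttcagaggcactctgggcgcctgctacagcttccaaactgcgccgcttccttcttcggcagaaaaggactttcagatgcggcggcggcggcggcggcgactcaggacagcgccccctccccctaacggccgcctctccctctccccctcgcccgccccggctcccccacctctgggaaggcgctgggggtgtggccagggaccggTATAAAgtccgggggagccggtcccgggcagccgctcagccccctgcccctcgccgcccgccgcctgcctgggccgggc
Both windows held the TATA box, TATAAA, which began 28 bases before the start in PAPPA and 29 bases before it in IGFBP4. It is in 11.5% of 35116 promoters of the same length. Of the 8 members for which a promoter was found, these 2 were the only ones with this match. Whether this or any other of the 6 motifs had a part in a member's level was not tested.

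The PAPPA window also held the FOXO motif, GTAAACA, here on the other strand and starting 137 bases before the start. This motif is in 3.42% of all promoters. Promoters were found for 8 of the 10 members (not for STC1 and IGFBP7), and IGFBP6 was the other one of the 8 with a FOXO match.

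The AP-1 motif, TGANTCA, is in 7.71% of all promoters and in none of the 8. The SRE, a sterol response element searched as TCACNCCAC, is in 1.13% and also in none of the 8.

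The E-box, CACGTG, is in 7.26% of all promoters and, of the 8, in IGF2R. The TFAP2 motif, searched as GCCNNNGGC, is in 23.2% and, of the 8, in IGFBP5, IGFBP6 and IGF1R. G and C made up 48.7% of the PAPPA window and 74.0% of the IGFBP4 window, and the median promoter had 58.7%.

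**Figure D1:**
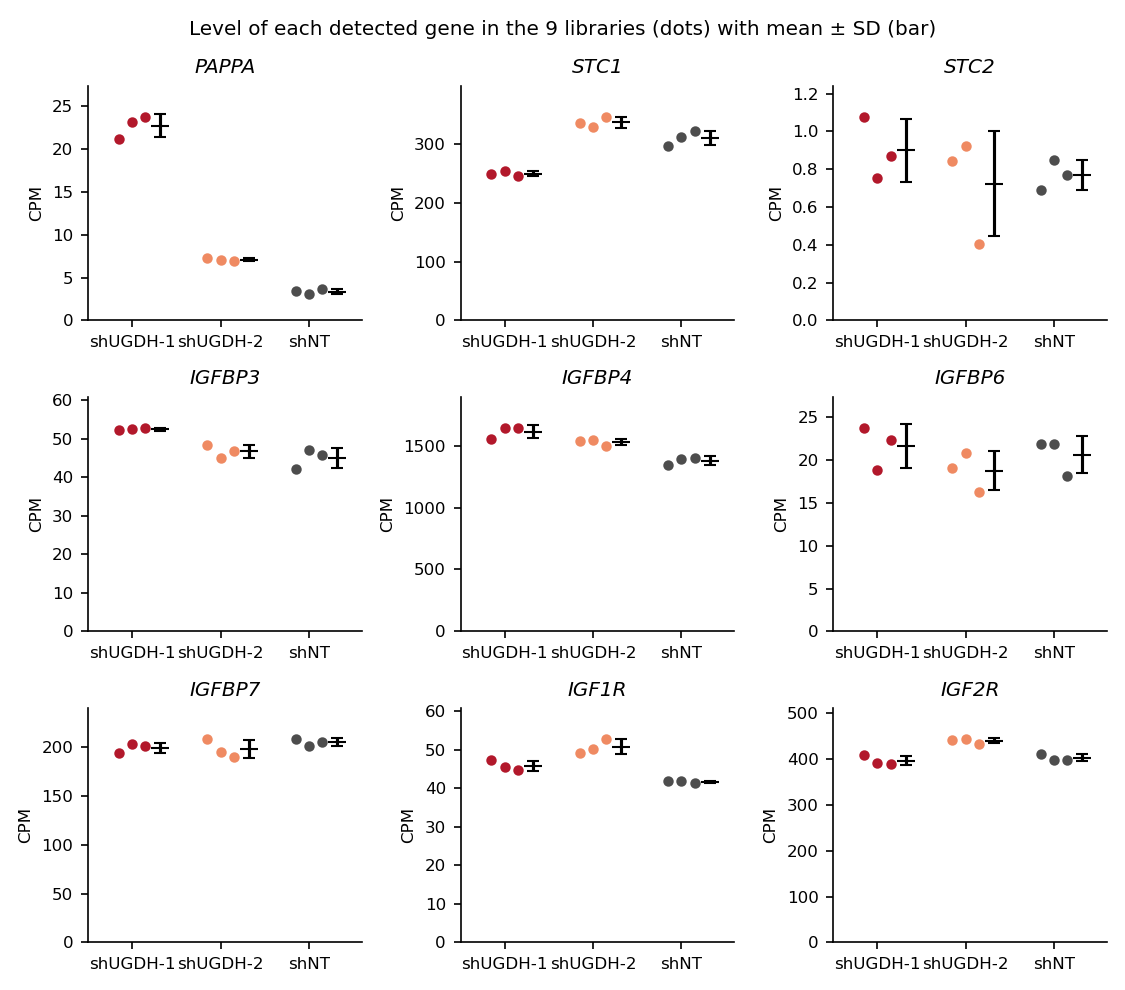
Level of the 9 detected genes in CPM (vertical axes, from 0) in each library, by hairpin (horizontal axes), with the mean ± SD of 3 libraries beside the dots. PAPPA separates the 3 groups, at 21.2 to 23.8, 6.95 to 7.33 and 3.06 to 3.66 CPM, and STC1 is lowest with shUGDH-1 and highest with shUGDH-2.

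The stanniocalcins showed no common pattern. STC1, the abundant one, had 249.7, 254.1 and 245.5 CPM with shUGDH-1, 335.8, 329.0 and 346.9 CPM with shUGDH-2, and 297.5, 311.5 and 322.1 CPM with shNT. The shUGDH-1 libraries all lay below the shNT range and the shUGDH-2 libraries all lay above it. The log2 fold change of STC1 was -0.31 with shUGDH-1 (SE 0.03, 95% interval -0.37 to -0.26) and 0.12 with shUGDH-2 (SE 0.03, 95% interval 0.07 to 0.17). Between the hairpins it was -0.43 for shUGDH-1 against shUGDH-2 (SE 0.03, 95% interval -0.49 to -0.38). STC2 had 14, 10 and 8 counts with shUGDH-1, then 10, 12 and 5 with shUGDH-2, and 9, 10 and 9 with shNT. Its groups overlapped, and at this depth the 95% interval of its log2 fold change ran from -0.55 to 1.01 with shUGDH-1 and from -0.89 to 0.74 with shUGDH-2, so neither a moderate rise nor a moderate fall was detectable.

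PAPPA was also set against its abundant inhibitor within each library. For every 1000 STC1 counts there were 84.8, 91.2 and 96.8 PAPPA counts with shUGDH-1, then 21.8, 21.3 and 20.0 with shUGDH-2, and 11.4, 9.83 and 11.4 with shNT. The means were 90.9 ± 6.01 with shUGDH-1, 21.1 ± 0.92 with shUGDH-2 and 10.9 ± 0.89 with shNT (SD, n = 3 each). With shUGDH-1 the protease was higher and the inhibitor lower, whereas with shUGDH-2 both were higher. Such ratios of counts describe transcripts in these libraries, and neither protein was measured.

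Of the binding proteins, IGFBP4 was higher with both hairpins. IGFBP4, the main substrate of PAPPA, had 1552, 1646 and 1644 CPM with shUGDH-1, 1538, 1547 and 1499 CPM with shUGDH-2, and 1340, 1394 and 1404 CPM with shNT. Both knockdown groups lay above the control range. The log2 fold change was 0.23 with shUGDH-1 (SE 0.02, 95% interval 0.19 to 0.27) and 0.15 with shUGDH-2 (SE 0.02, 95% interval 0.11 to 0.19). Between the hairpins it was 0.08 (SE 0.02, 95% interval 0.04 to 0.12). For every 1000 IGFBP4 counts there were 14.1 ± 0.41 PAPPA counts with shUGDH-1, 4.64 ± 0.12 with shUGDH-2 and 2.44 ± 0.22 with shNT (SD, n = 3 each).

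IGFBP3, the major carrier of IGFs in serum, was highest with shUGDH-1. It had 52.1, 52.4 and 52.9 CPM with shUGDH-1, 48.4, 45.0 and 46.7 CPM with shUGDH-2, and 42.1, 47.1 and 45.7 CPM with shNT. All 3 shUGDH-1 libraries were above every other library, and the shUGDH-2 and shNT ranges overlapped. The log2 fold change was 0.22 with shUGDH-1 (SE 0.06, 95% interval 0.11 to 0.33), 0.06 with shUGDH-2 (SE 0.06, 95% interval -0.06 to 0.17) and 0.17 between the hairpins (SE 0.05, 95% interval 0.06 to 0.28).

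IGFBP6, which prefers IGF2, had 23.8, 18.8 and 22.4 CPM with shUGDH-1, 19.1, 20.8 and 16.3 CPM with shUGDH-2, and 21.9, 21.9 and 18.1 CPM with shNT. IGFBP7, a distant relative that binds IGFs weakly, had 193.3, 202.8 and 201.2 CPM with shUGDH-1, 207.8, 194.9 and 189.8 CPM with shUGDH-2, and 208.4, 200.9 and 205.4 CPM with shNT. The groups overlapped for both genes. The interval of the log2 fold change was -0.12 to 0.24 for shUGDH-1 and -0.32 to 0.05 for shUGDH-2 in IGFBP6, and -0.10 to 0.02 and -0.12 to 0.01 in IGFBP7. The exons of IGFBP7 share 270 bases with POLR2B on the other strand, which codes for a subunit of RNA polymerase II, so some reads could belong to either, and 94 bases with IGFBP7-AS1, which the count table does not list. IGFBP5, the other binding protein PAPPA is known to cut, had 0 counts in all 9 libraries, which allows a level of up to 0.226 to 0.326 CPM per library (3 counts, counting error only).

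The receptors differed most with shUGDH-2. IGF1R had 47.3, 45.4 and 44.8 CPM with shUGDH-1, 49.3, 50.2 and 52.9 CPM with shUGDH-2, and 41.8, 41.8 and 41.4 CPM with shNT. The 3 groups did not overlap, with shUGDH-1 between shUGDH-2 and shNT. The log2 fold change was 0.14 with shUGDH-1 (SE 0.06, 95% interval 0.03 to 0.25), 0.29 with shUGDH-2 (SE 0.06, 95% interval 0.18 to 0.40) and -0.15 for shUGDH-1 against shUGDH-2 (SE 0.05, 95% interval -0.25 to -0.04). IGF2R, the mannose 6-phosphate receptor, had 408.7, 392.6 and 390.2 CPM with shUGDH-1, 442.2, 445.2 and 434.1 CPM with shUGDH-2, and 411.9, 399.0 and 398.2 CPM with shNT. Only shUGDH-2 stood outside the other ranges, at a log2 fold change of 0.13 against shNT (SE 0.02, 95% interval 0.08 to 0.17). With shUGDH-1 IGF2R stood at -0.02 against shNT (SE 0.02, 95% interval -0.07 to 0.03) and at -0.15 against shUGDH-2 (SE 0.02, 95% interval -0.20 to -0.10).

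**Figure D2:**
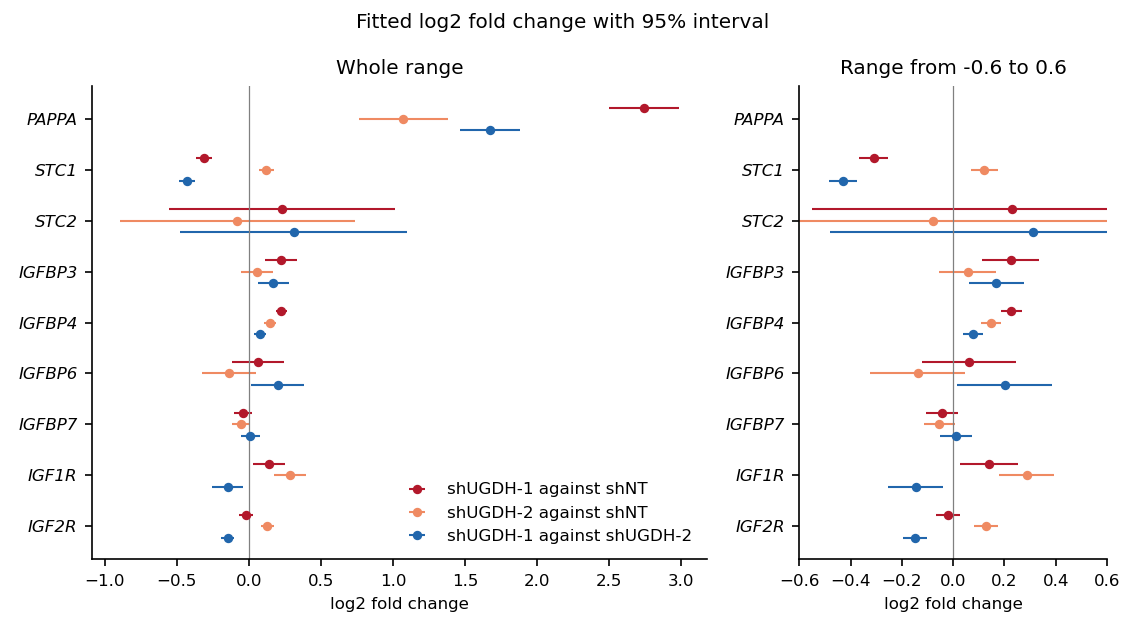
Log2 fold change (horizontal axes) of the 9 tested genes (rows) with its 95% interval, for shUGDH-1 against shNT, shUGDH-2 against shNT and shUGDH-1 against shUGDH-2, over the whole range on the left and from -0.6 to 0.6 on the right, where PAPPA lies outside. PAPPA stands at 2.74, 1.07 and 1.67, and STC1 has opposite signs with the hairpins.

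Counted over all genes at an adjusted p under 0.05 (edgeR quasi-likelihood test, Benjamini-Hochberg), 3 of the 9 tested members were higher with shUGDH-1 (PAPPA, IGFBP3 and IGFBP4), where 10.5% of all 12546 genes were higher, and 1 was lower (STC1), where 10.3% were. With shUGDH-2, 5 were higher (PAPPA, STC1, IGFBP4, IGF1R and IGF2R), where 8.04% of all genes were, and none was lower, where 6.81% were. For shUGDH-1 against shUGDH-2, 3 were higher (PAPPA, IGFBP3 and IGFBP4) and 2 lower (STC1 and IGF2R), where 5.51% and 5.36% of all genes were. Without replicate 3 of shUGDH-1 or replicate 3 of shUGDH-2, 1 in place of 3 was higher. Over the 14 alternatives, the IGFBP3 call was lost in 6 and the IGFBP4 call in 3. The groups did not overlap for 5 members with shUGDH-1 (34.1% of all genes), for 5 with shUGDH-2 (28.5%) and for 6 between the hairpins (27% of all genes). Nothing is read from these counts, because the members were chosen with these contrasts known. The median log2 fold change of the 9 was 0.14 for shUGDH-1 and 0.12 for shUGDH-2, beside -0.003 and -0.006 for all genes tested. Both contrasts with shNT use the same control libraries.

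To compare levels between genes, CPM was divided by exon length, with all annotated transcripts merged. Neither the transcripts expressed nor the annotation used in counting is known here, so the order between genes depends on this choice of length. IGFBP4 led in each group, at 734 ± 24.4 CPM per kb with shUGDH-1, 695 ± 11.6 with shUGDH-2 and 627 ± 15.6 with shNT (SD, n = 3 each). IGFBP7, STC1, IGF2R, IGFBP6, IGFBP3 and IGF1R followed in this order in all 3 groups. The ranges of neighbours in the order did not overlap, which covers the spread between libraries and not an error in length. IGF1R stood at 3.29 CPM per kb with shUGDH-1, 3.64 with shUGDH-2 and 2.99 with shNT. PAPPA came next, at 1.96 ± 0.12 CPM per kb with shUGDH-1, 0.61 ± 0.02 with shUGDH-2 and 0.29 ± 0.03 with shNT (SD, n = 3 each). STC2 was the lowest detected member, at 0.147, 0.118 and 0.126 CPM per kb with shUGDH-1, shUGDH-2 and shNT. Even with shUGDH-1, PAPPA therefore stayed below IGF1R by this measure, and its higher level left the order of the 9 genes as it was with shNT.

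**Figure D3:**
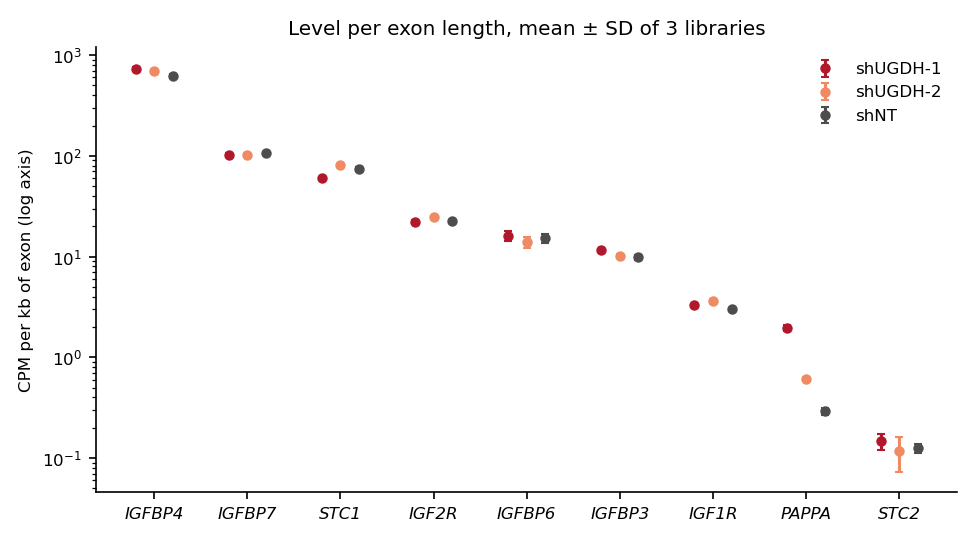
CPM per kb of exon (vertical log axis) of the 9 detected genes, ordered by their level with shNT, as mean ± SD of 3 libraries per hairpin. IGFBP4 lies highest at 734, 695 and 627, and PAPPA stands eighth in each group, at 1.96, 0.61 and 0.29.

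The ligands of the axis were not detected. IGF1, IGF2 and INS, and the orphan receptor gene INSRR, had 0 counts in all 9 libraries, with the same upper limit as for IGFBP5. That limit covers counting error only, and overlaps of these genes with other genes were not searched. INSR, the insulin receptor, which can pair with IGF1R, averaged 50.8 ± 1.24 CPM with shUGDH-1, 64.2 ± 2.24 CPM with shUGDH-2 and 55.9 ± 1.75 CPM with shNT (SD, n = 3 each). It rose with shUGDH-2 (log2 fold change 0.20, SE 0.05, adjusted p = 0.0025) and stood at -0.14 with shUGDH-1 (SE 0.05, adjusted p = 0.054), and the hairpins differed by -0.34 for shUGDH-1 against shUGDH-2 (SE 0.05, adjusted p = 6.7e-07, all edgeR, Benjamini-Hochberg).

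Among 4 other binding proteins and partners, IGFBP2 had no count, IGFALS had 2 counts in all, and 2 were tested. IGFBP1 did not pass with either hairpin, at log2 fold changes of 0.20 (adjusted p = 0.27) and -0.05 (adjusted p = 0.84, edgeR). IGFBPL1, named for its likeness to the IGF binding proteins, fell with shUGDH-1 to 17.04 ± 1.45 CPM, against 23.2 ± 0.27 CPM with shNT (SD, n = 3 each), a log2 fold change of -0.44 (SE 0.08, adjusted p = 2.8e-05, edgeR). With shUGDH-2 it averaged 26.4 ± 0.26 CPM (SD, n = 3), at 0.19 against shNT (SE 0.07, adjusted p = 0.078, edgeR), and the hairpins differed by -0.63 (SE 0.08, adjusted p = 8.6e-09, edgeR).

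Other proteases of the binding proteins, and PRG2, whose product forms an inhibited complex with PAPPA in pregnancy serum, gave 1 call among 4 tested genes of 7 listed. PAPPA2, the paralog of PAPPA, had 5 counts over all libraries and PRG2 had 38, and neither was tested. HTRA1, a serine protease that cleaves IGFBP5 among other substrates, fell with shUGDH-2 to 217.6 ± 6.65 CPM, against 234.3 ± 1.85 CPM with shNT (SD, n = 3 each; log2 fold change -0.11, SE 0.03, adjusted p = 0.0059, edgeR), and stood at -0.06 with shUGDH-1 (adjusted p = 0.10, edgeR). Between the hairpins HTRA1 did not pass, at 0.04 for shUGDH-1 against shUGDH-2 (adjusted p = 0.43, edgeR). ADAM9, ADAM12 and ADAM28 did not pass with either hairpin.

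Of 47 listed genes for signalling below IGF1R, 45 were tested. With shUGDH-1, 5 rose, 4 fell and 36 did not pass, a share close to the 20.8% of all genes tested that changed in either direction. With shUGDH-2, 8 rose, none fell and 37 did not pass, beside 14.9% of all genes. Their median log2 fold change was 0.004 with shUGDH-1 and 0.018 with shUGDH-2, beside -0.003 and -0.006 for all genes. These genes carry the signal from the receptor through adaptor proteins to the lipid kinase, AKT and mTOR branch and to the RAS branch.

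FOXO1, a transcription factor that AKT keeps out of the nucleus, rose with both hairpins, by 0.64 on the log2 scale with shUGDH-1 (SE 0.14, adjusted p = 0.00045) and by 0.67 with shUGDH-2 (SE 0.14, adjusted p = 0.00037, edgeR quasi-likelihood test). FOXO1 averaged 8.26 ± 0.93 CPM with shUGDH-1, 8.32 ± 0.53 CPM with shUGDH-2 and 5.22 ± 0.55 CPM with shNT (SD, n = 3 each). INPPL1, the lipid phosphatase SHIP2, rose by 0.16 with shUGDH-1 (adjusted p = 1.7e-05, edgeR) and by 0.15 with shUGDH-2 (adjusted p = 7.5e-05, edgeR). The related factor FOXO3 rose by 0.26 with shUGDH-2 (adjusted p = 0.00058) and stood at -0.07 with shUGDH-1 (adjusted p = 0.43), and the hairpins differed by -0.33 (SE 0.06, adjusted p = 1.3e-05, edgeR).

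The docking proteins and adaptors of the receptor showed small differences. IRS1 rose with shUGDH-2 by 0.13 (adjusted p = 0.00036, edgeR) and stood at 0.04 with shUGDH-1, and IRS2 stood at -0.01 and -0.05 and passed with neither (adjusted p = 0.86 and 0.49, edgeR). The adaptor gene SHC1 fell by 0.14 with shUGDH-1 (adjusted p = 2.9e-05, edgeR), stood at 0.01 with shUGDH-2, and differed between the hairpins by -0.15 (adjusted p = 1.6e-05, edgeR). Also with shUGDH-1, the phosphatase gene PTPN11 fell by 0.11, RHEB, an activator of mTOR, by 0.10 and the mTOR partner MLST8 by 0.19 (adjusted p = 0.0012, 0.0025 and 0.0034, edgeR). With shUGDH-2 these 3 genes stood at -0.06, -0.05 and -0.11 and did not pass. For shUGDH-1 against shUGDH-2 they stood at -0.05, -0.05 and -0.08 and did not pass either (adjusted p = 0.31, 0.24 and 0.36, edgeR). Without replicate 1 of shNT, the PTPN11 call with shUGDH-1 was lost.

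Of 16 listed FOXO target genes, 15 were tested, and they went both ways. With shUGDH-1, 1 rose, 1 fell and 13 did not pass, where 20.8% of all genes tested changed in either direction. With shUGDH-2, 5 rose, 3 fell and 7 did not pass, where 14.9% of all genes changed. CITED2, a transcriptional coregulator, rose by 0.23 and 0.13 with shUGDH-1 and shUGDH-2 (adjusted p = 1.2e-08 and 0.00079, edgeR). With shUGDH-2, the ubiquitin ligase gene FBXO32 rose by 0.31 and the growth arrest gene GADD45A by 0.18 (adjusted p = 0.012 and 0.003, edgeR), together with INSR, which is on this list too. TXNIP, an inhibitor of thioredoxin and glucose uptake, fell with shUGDH-2 by 0.24, the transcription factor gene KLF6 by 0.19 and the mitophagy gene BNIP3 by 0.15 (adjusted p = 2.6e-05, 2.4e-09 and 0.01, edgeR). With shUGDH-1, TXNIP, KLF6 and BNIP3 stood at -0.10, 0.05 and 0.03, FBXO32 and GADD45A at 0.03 and -0.01, and none passed. SESN1, a stress-induced inhibitor of mTORC1, fell by 0.56 with shUGDH-1 (SE 0.17, adjusted p = 0.012, edgeR) and stood at 0.12 with shUGDH-2. The SESN1 call was lost with DESeq2 and without replicate 1 of shUGDH-1 or replicate 2 of shNT, that of FBXO32 with DESeq2 and without replicate 1 of shUGDH-2 or of shNT, and that of BNIP3 with DESeq2 and without replicate 1 of shNT.

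Over all 77 listed pathway genes outside the 10 members, 65 were tested. With shUGDH-1, 6 rose and 6 fell, where 20.8% of all genes tested changed in either direction. With shUGDH-2, 13 rose and 4 fell, where 14.9% of all genes changed. For shUGDH-1 against shUGDH-2, 4 were higher and 8 lower, where 10.9% of all genes differed. The 4 became 2 with DESeq2, 2 without replicate 1 of shUGDH-1 or replicate 2 of shUGDH-2, and 1 without replicate 2 of shUGDH-1, and the 8 became 4 without replicate 1 of shUGDH-1. Without replicate 1 of shNT, and also with DESeq2, 8 rose with shUGDH-2 in place of 13.

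**Figure D4:**
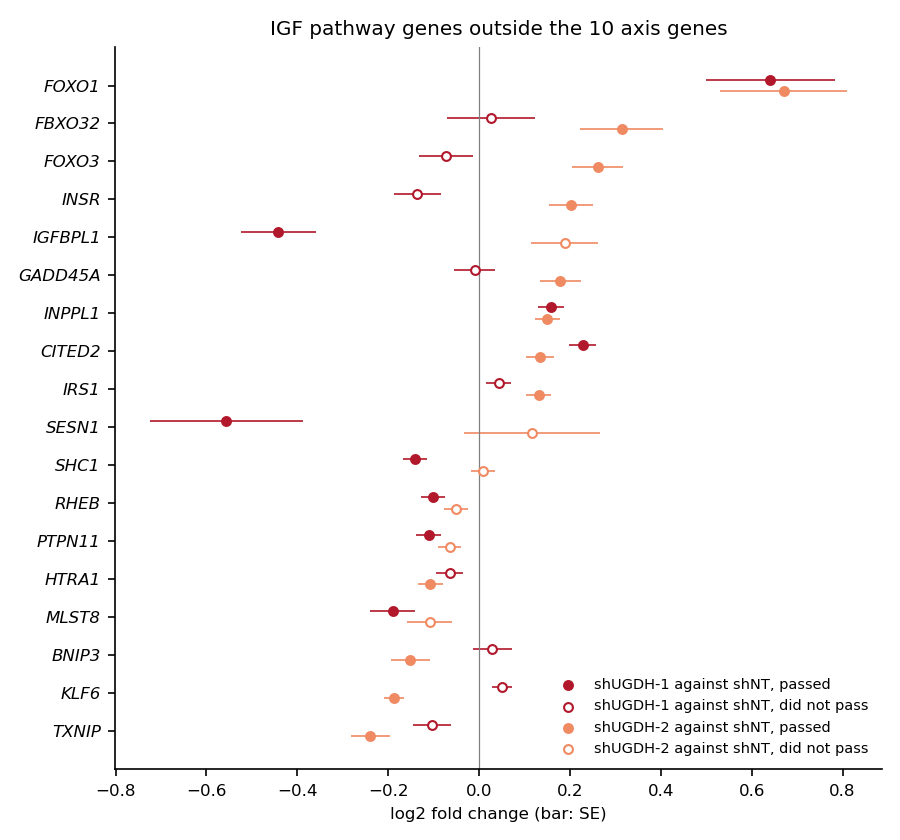
Log2 fold change with its SE (horizontal axis) of the 18 named pathway genes outside the 10 members (rows) with shUGDH-1 and shUGDH-2 against shNT, filled where the gene passed and open where it did not. FOXO1 lies farthest to the right with both hairpins, at 0.64 and 0.67, while IGFBPL1, at -0.44 and 0.19, and SESN1, at -0.56 and 0.12, lie on opposite sides of 0.

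The pattern of PAPPA over the 9 libraries was set beside that of 10522 named genes whose highest group averaged 5 CPM or more, as the root mean square difference of log2 CPM after each gene was centred on its own mean. The median difference was 1.12. The nearest gene was LPL, lipoprotein lipase, at 0.274, followed by COL4A4, a type IV collagen chain, at 0.449, LIPG, endothelial lipase, at 0.572, INHBA, a subunit of activins, at 0.593 and HHIP, an inhibitor of hedgehog signalling, at 0.599. LPL averaged 10.8 ± 1.16 CPM with shUGDH-1, 4.78 ± 0.45 CPM with shUGDH-2 and 2.04 ± 0.31 CPM with shNT (SD, n = 3 each). COL4A4 averaged 7.86 ± 0.97 CPM with shUGDH-1, 3.40 ± 0.71 CPM with shUGDH-2 and 2.23 ± 0.37 CPM with shNT (SD, n = 3 each). On the log2 scale, shUGDH-1 stood above shUGDH-2 by 1.18 for LPL (SE 0.14) and by 1.20 for COL4A4 (SE 0.17), and shUGDH-2 stood above shNT by 1.22 (SE 0.20) for LPL and by 0.60 (SE 0.22) for COL4A4. LIPG and INHBA differed less between the hairpins, at log2 values of 0.32 (SE 0.14) and 0.28 (SE 0.11) for shUGDH-1 against shUGDH-2, beside 1.67 (SE 0.10) for PAPPA. The 9 libraries share 3 hairpin groups, so genes that differ by hairpin in the same direction and by similar amounts will be near to each other by this measure. LPL and COL4A4 reached 5 CPM only with shUGDH-1, and all 5 genes were picked for their likeness to PAPPA. Their differences by hairpin follow from that choice and are given as descriptions.

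**Figure D5:**
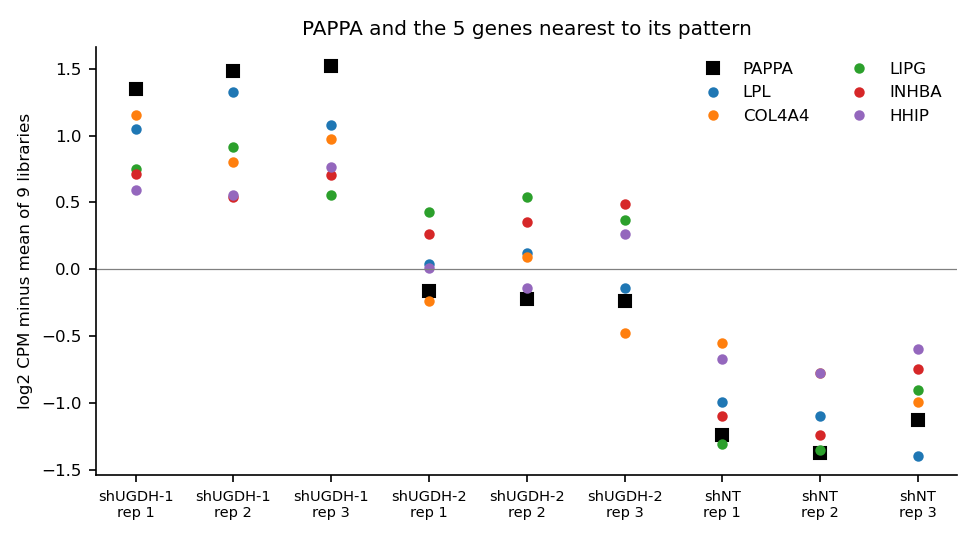
Log2 CPM minus each gene's mean over the 9 libraries (vertical axis) for PAPPA (squares) and the 5 genes nearest to it (circles), by library (horizontal axis, 3 replicates per hairpin). PAPPA and LPL, whose profiles differ by a root mean square of 0.274, are high with shUGDH-1, intermediate with shUGDH-2 and low with shNT.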

How the data were processed

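RNA of MDA-MB-231 cells was sequenced in 9 libraries. The deposited table holds raw counts per gene, which were used as they stand. Per the submitters' processing notes, reads were handled with STAR, DESeq and DESeq2 on hg19. The sources used here give no tool versions, gene annotation, read counter or strand setting. Tables of comparisons deposited by the authors list log2 fold changes with standard errors, a baseMean signal and p-values. Only the PAPPA fold changes were taken from them.

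Counts were filtered with filterByExpr, which left 12546 of 23710 entries and 99.93% of the counts, scaled by TMM and fitted with edgeR 4.0.16 (robust quasi-likelihood, 3 group means, 6 residual degrees of freedom, R 4.3.3). Adjusted p-values are Benjamini-Hochberg over all genes tested, with a threshold of 0.05. The 28 symbols that had turned into dates were kept in the fit without a name. The fit was tested on simulated data. Alternatives were DESeq2 1.42.0, RLE scaling, no filter, 2 groups in the fit, a replicate block and each library left out. Counting error limits low genes such as STC2 most.

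The members, lists and rules were chosen with earlier results of these data known. The text names the 10 members, UGDH, up to 8 called genes of each list by smallest adjusted p, IGF1, IGF2, INSR, IRS1, IRS2, IGFBP1, IGFBP2, PAPPA2 and PRG2 whatever their result, the 5 genes nearest to PAPPA (log2 CPM, prior count 2), overlapping genes and neighbours. Exon lengths, 3′ UTRs and matches come from GENCODE 29 (GRCh38), and promoters from RefSeq. A gene among the listed cell type markers is not reported here.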

Additional observations from a re-analysis of the deposited data

How the results depend on the processing

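PAPPA was called in the same direction in all 3 contrasts under all 14 alternatives, and its log2 fold change with a library left out ranged from 2.68 to 2.81 with shUGDH-1, 1.01 to 1.13 with shUGDH-2 and 1.64 to 1.72 between the hairpins. The member calls against shNT also held under all 14, apart from STC2, for which DESeq2 gave no adjusted p. These alternatives reuse the libraries on which the members were chosen. The calls therefore show only how far they depend on the processing, and nothing more is read from them. Between the hairpins, members called higher ranged from 1 to 3 with a library left out: IGFBP3 was lost in 6 alternatives (DESeq2, or without any 1 library of shUGDH-1 or replicate 2 or 3 of shUGDH-2), IGFBP4 in 3 (without replicate 2 or 3 of shUGDH-1 or replicate 3 of shUGDH-2), and IGFBP6 was gained without replicate 2 of shUGDH-1. The cause was not tested.

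With DESeq2, 876 genes rose and 753 fell with shUGDH-1 (1318 and 1287 with edgeR), 611 and 400 with shUGDH-2 (1009 and 855), and 383 and 407 were higher and lower between the hairpins (691 and 672). Pathway genes outside the members called higher with DESeq2 were 8 with shUGDH-2 and 2 between the hairpins. With a library left out, genes that fell with shUGDH-2 ranged from 495 (without its replicate 1) to 843, pathway genes that rose with shUGDH-2 from 8 (without replicate 1 of shNT) to 13, and those higher between the hairpins from 1 to 5 and lower from 4 to 8.

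Replicate numbers did not pair the libraries: same-numbered libraries had correlations of their deviations of -0.08 to 0.13, and none of the 9 correlated best with its own number throughout. With a replicate block, 1298 genes rose and 1284 fell with shUGDH-1. The 5 genes nearest to PAPPA were shared with a prior count of 0.5. At these depths STC2 and PAPPA2 were too low for a change to be measured well.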
